A study of Mus musculus with 20 samples.

Results

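Smooth muscle contractile genes were read as 10 genes, Acta2, Actg2, Tagln, Cnn1, Cnn2, Myl9, Tpm1, Tpm2, Cald1 and Ankrd1, chosen by symbol. Every probe set annotated to 1 of these symbols was taken, which gave 23 probe sets of the 45037 tested and 10 of 18193 genes. All 10 genes were measured and none was filtered out. The arrays compared cultured mouse cells that a study of germline stem cells turned pluripotent in culture had set beside its controls.

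Germline pluripotent stem cells (gPS, 5 arrays) were colonies that had arisen within 3 to 4 weeks in wells seeded with about 1000 germline stem cells, and they were then expanded on mouse embryonic fibroblasts in embryonic stem cell medium. The parental germline stem cells (GSC, 3 arrays) were cultured from the testes of OG2 mice, which carry green fluorescent protein under the Oct4 promoter (B6;CBA-Tg[Pou5f1-EGFP]2Mnn/J), in a medium with GDNF, bFGF, EGF and LIF, and were kept on inactivated mouse embryonic fibroblasts. The gPS cells carry the same OG2 transgene. ESC-like cells (ESC_like, 3 arrays) came from testes at postnatal day 0 to 2, were provided by another laboratory, and grew on fibroblast feeders with LIF. Their strain is not given in the sources used here. Mouse embryonic fibroblasts (MEF, 3 arrays) came from C3H embryos at E12.5. Neural stem cells (NSC, 3 arrays) were made from Olig2-GFP embryonic stem cells, and embryonic stem cells (ESC, 3 arrays) were the RW4 line on fibroblast feeders with LIF. Per the labels, feeder fibroblasts were thus in the dish of the gPS, GSC, ESC_like and ESC cells, and their labels name no step that removed feeder cells before RNA extraction. The labels name neither the number of gPS or ESC_like lines nor separate cultures, so the p-values cover the spread from array to array alone, and that spread may be technical.

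Smooth muscle cells contract when myosin pulls on thin filaments of actin and tropomyosin, and the regulatory light chain of myosin switches the motor on when it is phosphorylated. Transgelin, calponins and caldesmon bind the thin filament. Fibroblasts, and above all activated ones called myofibroblasts, use the same genes. Many of their promoters are known targets of serum response factor (SRF), which binds the CArG box together with myocardin or the myocardin-related factors Mrtfa and Mrtfb, and TEAD factors, the partners of Yap1 and Wwtr1, bind the MCAT element.

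The label was checked against genes that define mature smooth muscle. Myh11, the smooth muscle myosin heavy chain, had group means of 3.55 to 3.99 and Myocd, the smooth muscle and cardiac cofactor of SRF, of 3.68 to 3.93 on the log2 intensity scale, in all 6 groups below the median of all values on the arrays, 4.97. The other 4 genes of the mature smooth muscle list, Smtn, Lmod1, Des and Synpo2, averaged 6.96, 7.13, 7.13 and 5.55 in MEF, above that median. Myh11 and Myocd were thus dim in every culture, MEF included. The other 4 had their highest mean in MEF, but most also passed that median elsewhere. Des was above it in all 6 groups, Smtn in all but GSC, Lmod1 in all but NSC, and Synpo2 in MEF alone. In bulk RNA, fewer cells of a type and less RNA per cell cannot be told apart.

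Promoter sequence was taken from RefSeq (GRCm38.p6) for the 250 bases before the transcript start, where 8 of the 10 genes had an entry. The CArG box (CCWWWWWWGG, where W is A or T) and the MCAT core (CATTCC, or GGAATG on the other strand) were searched on both strands, by exact match. An exact CArG box lay in the window of 2 genes, Myl9 and Cnn2, and in 1.47% of all 32851 promoters of the same length. Boxes a letter off were not counted, such as ccctatatgg and ccttgtttgg in the window of Acta2. An MCAT core lay in the window of 4 genes, Cald1, Tpm1, Acta2 and Ankrd1, and in 12.6% of all promoters. The 3 sequences below are those with an exact CArG box and the one with the MCAT core at 2 places, with the matches in capitals. Myl9 (chr2:156775214-156775463, plus strand) had its CArG box at -161 to -152 from the start, Cnn2 (chr10:79988350-79988599, plus strand) at -56 to -47, and Ankrd1 (chr19:36119845-36120094, minus strand) its MCAT cores at -210 to -205 and -123 to -118.
Myl9: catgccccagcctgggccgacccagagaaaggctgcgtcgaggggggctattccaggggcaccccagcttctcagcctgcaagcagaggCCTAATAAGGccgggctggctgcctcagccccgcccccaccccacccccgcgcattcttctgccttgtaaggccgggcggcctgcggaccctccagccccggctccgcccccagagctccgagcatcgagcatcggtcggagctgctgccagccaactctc
Cnn2: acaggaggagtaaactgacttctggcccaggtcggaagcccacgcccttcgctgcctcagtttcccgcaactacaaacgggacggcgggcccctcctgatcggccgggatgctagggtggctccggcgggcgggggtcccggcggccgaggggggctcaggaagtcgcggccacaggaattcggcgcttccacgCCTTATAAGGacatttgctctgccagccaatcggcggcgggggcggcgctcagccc
Ankrd1: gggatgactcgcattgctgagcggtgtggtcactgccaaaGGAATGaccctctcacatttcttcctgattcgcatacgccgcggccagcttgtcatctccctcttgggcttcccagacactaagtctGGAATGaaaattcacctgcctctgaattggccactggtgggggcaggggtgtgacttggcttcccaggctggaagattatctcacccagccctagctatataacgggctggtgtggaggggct
The match is a description of the letters in this window only. By exact match, no gene with one motif had the other in its window, and this does not cover boxes a letter off.

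Values are log2 intensities that the authors made with RMA, so that 1 unit is a 2-fold difference, and a gene is represented by the brightest of its probe sets, judged by the mean of the 20 arrays. A gene was called higher or lower at an adjusted p under 0.05 (limma, Benjamini-Hochberg over all 18193 genes of a comparison) and at least 2-fold. Of the 10 genes, gPS cells had all 10 above GSC, against 9.10% of all genes, and 7 above ESC, against 2.36% of all genes. In the ESC_like cells all 10 were higher than in ESC, against 5.11% of all genes. Set against ESC_like cells, 9 of the 10 were lower in gPS cells, where 3.74% of all genes were lower. Relative to GSC, the median difference of the 10 genes in gPS cells was 2.09 and that of all genes 0.02, and relative to ESC it was 1.34 and 0.02.

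MEF had the highest mean for all 10 genes and ESC_like cells the second highest. gPS cells were next for 9 of them, and the exception was Cald1, with NSC above gPS cells. The share of all genes with this order of groups was not counted. gPS cells lay below MEF for all 10 genes (12.0% of all genes were lower), by a median of -3.76. MEF lay above ESC for all 10, by a median of 5.57. Between MEF and ESC 23.4% of all genes were called in either direction, so the share called higher was smaller than that. The comparisons share their gPS or ESC arrays, so they are not independent of each other.

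**Figure D1:**
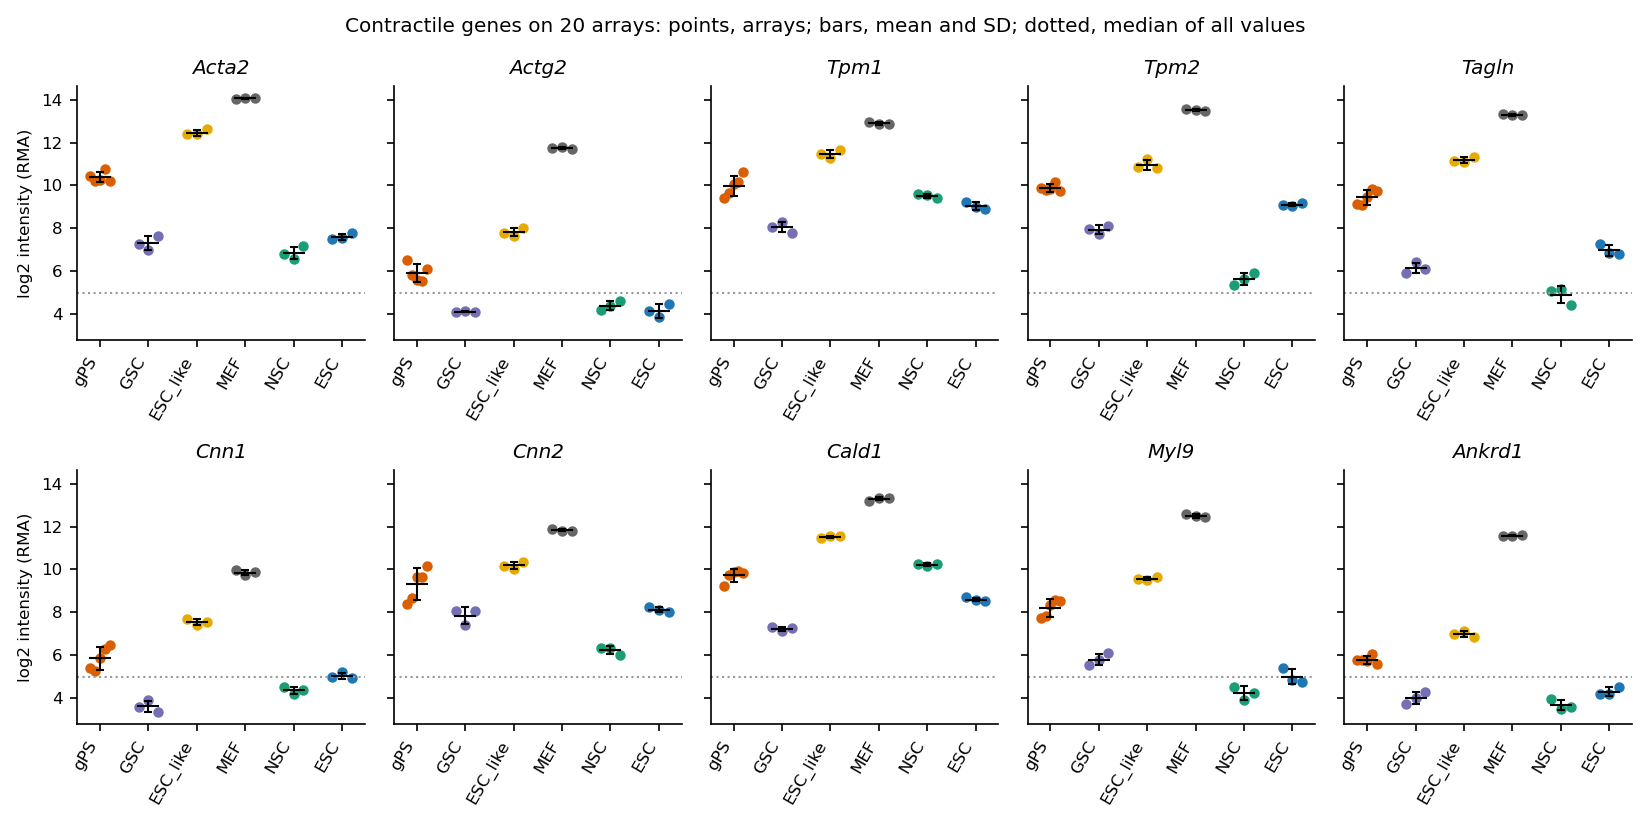
Log2 intensity (RMA) of each of the 10 genes on 20 arrays, with 1 point per array, bars at the group mean and SD, and a dotted line at 4.97, the median of all values. gPS points lie above all GSC and all ESC points in each of the 10 panels, and MEF points lie at the top. The share of all genes with this separation was not counted.

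Acta2 encodes smooth muscle alpha-actin, the actin that marks smooth muscle and myofibroblasts. It measured 10.44, 10.22, 10.25, 10.79 and 10.22 on the 5 gPS arrays, and 7.27, 6.99 and 7.65 on the GSC arrays. The ESC_like arrays gave 12.39, 12.38 and 12.61, the MEF arrays 14.02, 14.07 and 14.10, the NSC arrays 6.82, 6.59 and 7.16, and the ESC arrays 7.49, 7.53 and 7.78. The gPS arrays formed a narrow band about 3 units above GSC, while GSC overlapped with ESC and with NSC. Acta2 was higher in gPS cells than in GSC by 3.08 ± 0.16 (SE, adjusted p = 7.33e-13), an 8.47-fold difference, and higher than in ESC by 2.78 ± 0.16 (adjusted p = 6.85e-11). It was lower in gPS than in ESC_like cells by a log2 difference of -2.08 ± 0.16 (adjusted p = 6.44e-09).

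Its probe set, 1416454_s_at, carries the suffix given to sets whose probes match transcripts of more than 1 gene, so signal from another actin cannot be told apart from that of Acta2. The other 2 sets of the gene were dim outside MEF. Probe set 1444105_at averaged 3.12 ± 0.24 in gPS and 3.16 ± 0.15 in GSC but 6.81 ± 0.16 in MEF (SD, n = 5, 3 and 3), and 1456658_at averaged 3.64 ± 0.39, 3.32 ± 0.31 and 5.24 ± 0.40 in the same groups. MEF was the highest group in these sets too, and neither was called between gPS cells and GSC or between gPS cells and ESC. With s_at and x_at sets left out, an alternative added after seeing the data, Acta2 differed by 0.32 between gPS cells and GSC. It was not called, and 9 of the 10 genes remained called in that comparison. The stricter filter also left out a_at sets, whose probes match several transcripts of 1 gene. There, Acta2 (0.32) and Tpm2 (-0.09) were not called between gPS cells and GSC, and Actg2 had no probe set left. The other genes kept their call.

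Actg2, the enteric smooth muscle gamma-actin, had a lower range in gPS cells. It measured 6.54, 5.83, 5.60, 5.53 and 6.11 on the gPS arrays, against 4.09, 4.16 and 4.11 on the GSC arrays and 4.15, 3.86 and 4.49 on the ESC arrays. It was 7.66 to 8.01 in ESC_like cells, 11.70 to 11.80 in MEF and 4.19 to 4.60 in NSC. Every gPS array was above every GSC and ESC array, and GSC, where Actg2 lay below the array-wide median, overlapped with ESC. The difference from GSC was 1.80 ± 0.18 (SE, adjusted p = 3.54e-08) and that from ESC 1.76 ± 0.18 (adjusted p = 4.47e-07).

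Of 14 paralogs of the 10 genes, other actins among them, 2 were called higher and none lower in gPS cells relative to GSC, against 9.10% and 10.9% of all genes, and 10 were higher and 1 lower at an unadjusted p under 0.05. These were Tpm4, a cytoplasmic tropomyosin (2.07 ± 0.17), and Acta1, skeletal alpha-actin (1.42 ± 0.22). Their median difference was 0.41, against 0.02 for all genes. None of the 14 was called between gPS cells and ESC (limma), where 2.36% of all genes were higher and 2.13% lower, while 4 were higher and 2 lower at an unadjusted p under 0.05 and the median was 0.18. Actb, the common beta-actin, differed by -0.06 ± 0.08 there (SE, adjusted p = 0.6404). Between ESC_like cells and ESC 3 of the 14 were higher (5.11% of all genes), Acta1 (1.27 ± 0.24), Actc1, cardiac alpha-actin (1.21 ± 0.14), and Tpm4 (1.09 ± 0.19). In MEF 7 were higher and 1 lower than in ESC, where 23.4% of all genes were called in either direction, with Acta1 at 5.32 ± 0.24.

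Tropomyosins lie along the actin filament and gate the access of myosin. Tpm1 measured 9.41, 9.67, 10.06, 10.18 and 10.61 on the gPS arrays, against 8.08, 8.30 and 7.80 on the GSC arrays and 8.90 to 9.24 on the ESC arrays. ESC_like cells had 11.29 to 11.64, MEF 12.85 to 12.95 and NSC 9.42 to 9.58. The gPS arrays were all above ESC and overlapped with NSC. Tpm1 was higher in gPS cells than in GSC by 1.92 ± 0.19 (SE, adjusted p = 2.21e-08), and the difference from ESC, 0.94 ± 0.19 (adjusted p = 0.00087), was under 2-fold and not called. It became 1.08 without gPS replicate 1, 1.02 without gPS replicate 2 and 1.03 without ESC replicate 1, and was called each time.

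Tpm2, beta-tropomyosin, measured 9.87, 9.78, 9.84, 10.17 and 9.73 on the gPS arrays, against 7.97, 7.73 and 8.13 on the GSC arrays and 9.07, 9.06 and 9.18 on the ESC arrays. It was 10.86, 11.24 and 10.81 on the ESC_like arrays, 13.45 to 13.55 in MEF and 5.36, 5.62 and 5.94 on the NSC arrays. The 6 groups did not overlap, and NSC was lowest. The difference of gPS cells from GSC was 1.93 ± 0.14 (SE, adjusted p = 1.25e-10), that from ESC was 0.77 ± 0.14 and not called, and NSC were lower than ESC by a log2 difference of -3.46 ± 0.15 (adjusted p = 5.55e-14). The gPS minus ESC_like difference was -1.09 ± 0.14 (adjusted p = 4.14e-06), and without ESC_like replicate 2 it was -0.96 and not called. The set of highest mean, 1419738_a_at, has the suffix given to probes that match several transcripts of 1 gene. The 1 set with no such suffix, 1419739_at, averaged 4.19 ± 0.24 in gPS cells and 4.28 ± 0.02 in GSC (SD, n = 5 and 3), a difference of -0.09 that was not called.

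Tagln encodes transgelin, an actin-binding protein that appears early in smooth muscle differentiation. It measured 9.14, 9.07, 9.48, 9.82 and 9.76 on the gPS arrays, against 5.91, 6.41 and 6.13 on the GSC arrays and 7.26, 6.83 and 6.81 on the ESC arrays. It was 11.15, 11.09 and 11.35 on the ESC_like arrays, 13.28 to 13.35 in MEF and 5.08, 5.17 and 4.44 on the NSC arrays. All 6 groups were separate. The gPS minus GSC difference, 3.30 ± 0.19 (SE, adjusted p = 4.03e-12), was the largest of the 10 genes in that comparison, and gPS cells were above ESC by 2.49 ± 0.19 (adjusted p = 5.09e-09). GSC and ESC differed by -0.82 ± 0.21, which was under 2-fold, while NSC were lower than ESC by -2.07 ± 0.21 (adjusted p = 3.15e-08).

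Cnn1 and Cnn2 encode calponins, which bind actin and inhibit the myosin motor. Cnn1, the form typical of smooth muscle, measured 5.39, 5.29, 5.86, 6.28 and 6.48 on the gPS arrays, against 3.58, 3.91 and 3.36 on the GSC arrays and 4.97, 5.21 and 4.95 on the ESC arrays. ESC_like cells had 7.41 to 7.67, MEF 9.74 to 9.96 and NSC 4.18 to 4.52. Every gPS array was above ESC, with the lowest 2 close to it. Cnn1 was higher in gPS cells than in GSC by 2.24 ± 0.21 (SE, adjusted p = 9.46e-09), and its difference from ESC, 0.82 ± 0.21 (adjusted p = 0.005819), was not called. It was lower in GSC than in ESC by -1.42 ± 0.23 (adjusted p = 2.32e-05).

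Cnn2, a calponin of many cell types, varied most among the gPS arrays. It measured 8.38, 8.69, 9.65, 9.67 and 10.18 there, against 8.06, 7.40 and 8.08 on the GSC arrays, 10.17, 10.03 and 10.37 on the ESC_like arrays and 8.24, 8.10 and 8.01 on the ESC arrays. The highest gPS array reached the ESC_like range and the lowest 1 stood just above ESC. The difference of gPS cells from GSC was 1.47 ± 0.28 (SE, adjusted p = 0.000136), that from ESC 1.20 ± 0.28 (adjusted p = 0.003), and that from ESC_like cells -0.88 ± 0.28 (adjusted p = 0.02247), which was not called. Without gPS replicate 5 the difference from ESC was 0.98 and lost its call, and that from ESC_like cells was -1.09 and was called. In NSC Cnn2 measured 6.33, 6.34 and 6.01 and was lower than in ESC by -1.89 ± 0.31 (adjusted p = 2.83e-05).

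Cald1 encodes caldesmon, which blocks the binding of myosin to actin. It measured 9.21, 9.73, 9.88, 9.92 and 9.85 on the gPS arrays, against 7.32, 7.12 and 7.25 on the GSC arrays and 8.71, 8.56 and 8.54 on the ESC arrays. It was 11.46 to 11.56 in ESC_like cells and 13.21 to 13.33 in MEF, and the NSC arrays had 10.25, 10.17 and 10.27. All 6 groups were separate, and Cald1 was the 1 gene of the 10 with NSC above gPS cells. It was higher in gPS cells than in GSC by 2.49 ± 0.13 (SE, adjusted p = 7.36e-13) and than in ESC by 1.11 ± 0.13 (adjusted p = 1.43e-06). GSC were lower than ESC by -1.38 ± 0.14 (adjusted p = 4.11e-08), and NSC were higher than ESC by 1.62 ± 0.14 (adjusted p = 3.51e-09).

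Myl9 encodes the regulatory light chain of smooth muscle and nonmuscle myosin, and is one of the 2 genes with an exact CArG box in the window above. It measured 7.72, 7.81, 8.34, 8.58 and 8.54 on the gPS arrays, against 5.55, 5.76 and 6.09 on the GSC arrays and 5.40, 4.85 and 4.76 on the ESC arrays. It was 9.50 to 9.65 in ESC_like cells, 12.44 to 12.59 in MEF and 3.91 to 4.54 in NSC. Myl9 was the 1 gene whose GSC arrays all lay above ESC, by 0.80 ± 0.22 (SE), which was not called. Its difference of gPS cells from ESC, 3.19 ± 0.20 (adjusted p = 3.21e-10), was the largest of the 10 genes in that comparison, and the difference from GSC was 2.40 ± 0.20 (adjusted p = 1.75e-09).

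Ankrd1 encodes an ankyrin repeat protein known from heart muscle and as a target of Yap1 and TEAD factors, and its window held the MCAT core at 2 places. It measured 5.77, 5.78, 5.73, 6.07 and 5.59 on the gPS arrays, against 3.72, 4.02 and 4.28 on the GSC arrays and 4.21, 4.18 and 4.54 on the ESC arrays. ESC_like cells had 7.00, 7.14 and 6.85, MEF 11.56 to 11.59 and NSC 3.50 to 3.95. GSC overlapped with ESC and NSC, all below the array-wide median, so a difference among these 3 groups could not be read from this probe set. Ankrd1 was higher in gPS cells than in GSC by 1.78 ± 0.14 (SE, adjusted p = 6.43e-10) and than in ESC by 1.48 ± 0.14 (adjusted p = 1.23e-07). A second probe set, 1420992_at, averaged 5.25 ± 0.19 in gPS cells and 3.90 ± 0.19 in GSC (SD, n = 5 and 3) and was called higher as well.

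**Figure D2:**
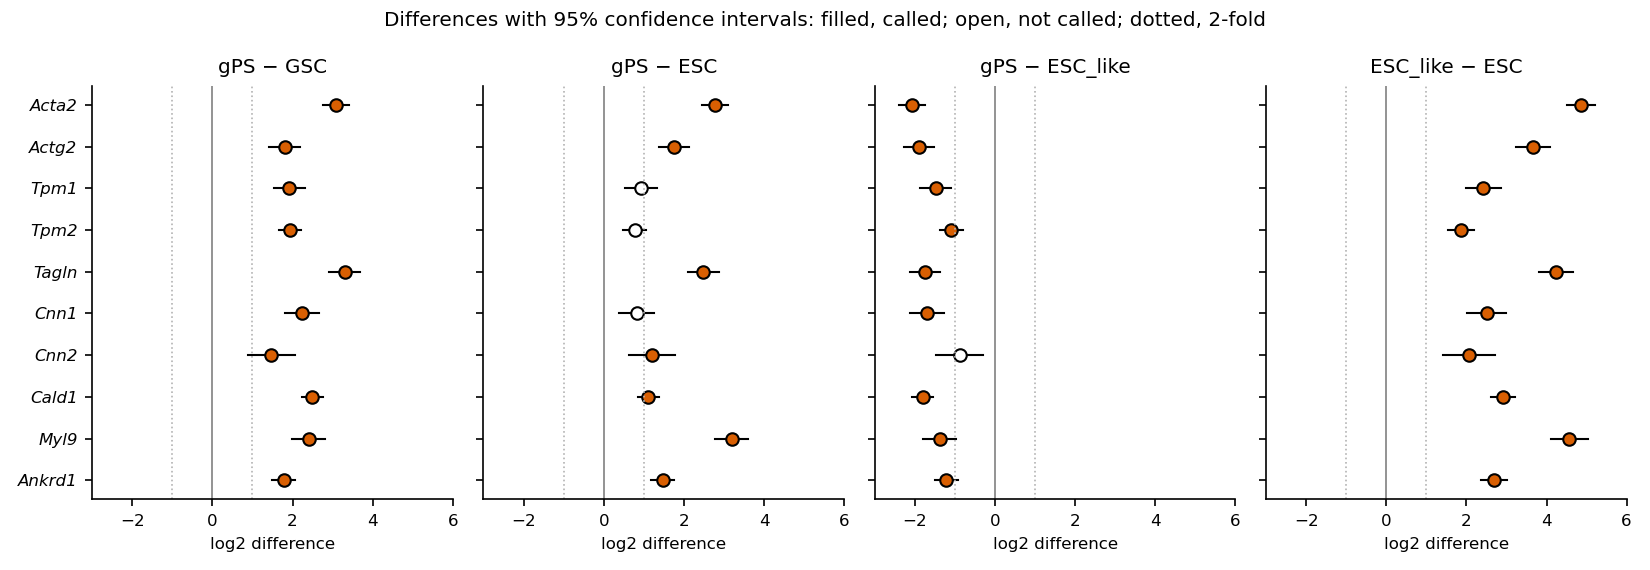
Log2 differences of the 10 genes in 4 comparisons, with limma's 95% confidence intervals, filled where called and open where not, and dotted lines at 2-fold. In gPS minus GSC all 10 points are filled between 1.47 and 3.30, while in gPS minus ESC the points of Tpm1, Tpm2 and Cnn1 are open.

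Over all 23 probe sets, 16 were higher in gPS cells than in GSC (7.41% of all probe sets), 10 higher than in ESC (1.74%) and 15 lower than in ESC_like cells (3.30%). ESC_like cells had 16 above ESC (4.09%), and MEF had 20 above ESC (9.93%). GSC had 5 below ESC (8.89%), and gPS cells had 20 below MEF (9.94%). The 16 sets called between gPS cells and GSC had gPS means of 5.25 or more, and the 7 that were not called had means of at most 5.07 in either group, near or below the median of all values. Called sets of 1 gene moved the same way. For Cald1, whose set of highest mean is an s_at set, the sets 1424768_at and 1424770_at averaged 8.26 ± 0.25 and 8.36 ± 0.25 in gPS cells, against 5.47 ± 0.28 and 6.60 ± 0.07 in GSC (SD, n = 5 and 3). For Tpm1 the set 1423721_at averaged 9.67 ± 0.22 in gPS cells and 7.84 ± 0.12 in GSC. Actg2, Tagln, Cnn1, Cnn2 and Myl9 had 1 probe set each.

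**Figure D3:**
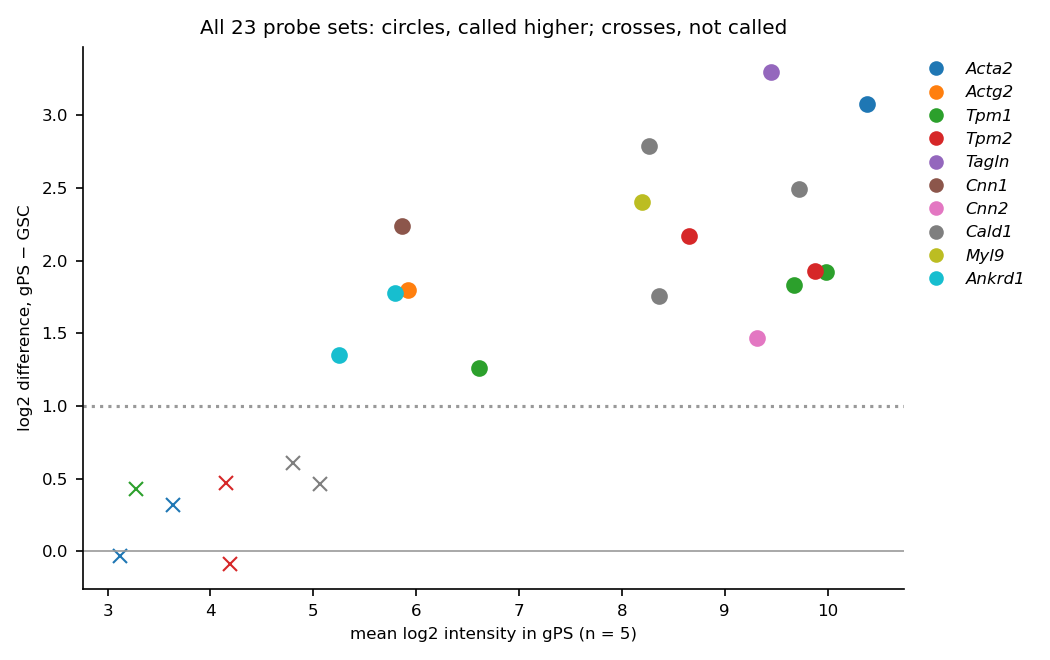
Each of the 23 probe sets by its mean log2 intensity in gPS cells (horizontal) and its log2 difference between gPS cells and GSC (vertical), coloured by gene, with circles for sets called higher, crosses for sets not called and a dotted line at 2-fold. The 7 crosses lie at the left, at gPS means of 5.07 or less.

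The gPS arrays varied more among themselves than the other cultures with high levels. The SD of the 10 genes was 0.17 to 0.75 in gPS cells, against 0.05 to 0.23 in ESC_like cells and 0.02 to 0.11 in MEF, and it was larger in gPS than in ESC_like cells for 9 genes. For 6 genes, Tpm1, Tagln, Cnn1, Cnn2, Cald1 and Myl9, gPS replicates 1 and 2 were both below the other 3. How many of all genes had this order was not counted, so it may not be particular to the 10. Over all probe sets, replicates 1 and 2 also had the lowest mean correlations with their group, 0.979 and 0.983. The spread was not tested. Without gPS replicates 1 and 2, a choice made after seeing the data, gPS cells had 9 of the 10 genes above ESC, with Tpm1 at 1.23 and Cnn1 at 1.16. The share of all genes called at that choice is not set beside this count.

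Most of the 10 genes had lower values in GSC than in ESC. The difference was negative for 9 and positive for 1, with a median of -0.56, against 0 for all genes. Tpm2, Cnn1 and Cald1 were called lower in GSC, against 10.2% of all genes, and the other 7 were not called. Tpm2 (-0.60) and Cald1 (-0.83) lost the call with the mean of the probe sets, which left 1 gene called, and Cald1 (-0.33) also with s_at and x_at sets left out. The differences ran from -1.42 for Cnn1 to 0.80 for Myl9. Tpm1, at -0.99 ± 0.21 (SE), passed the call when GSC replicate 2 (-1.11), ESC replicate 2 (-1.01) or ESC replicate 3 (-1.06) was left out.

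NSC set the genes apart from each other. Against ESC, Cald1 was higher (11.4% of all genes were), Tpm2, Tagln and Cnn2 were lower (10.0% were) and 6 genes were not called. Tpm1 had 9.52 ± 0.09 in NSC and 9.05 ± 0.17 in ESC (SD, n = 3 each), a difference of 0.47 ± 0.21 (SE, adjusted p = 0.0721). NSC is the group in which the 2 tropomyosins went apart most, since Tpm2 averaged 5.64 ± 0.29 in NSC and 9.10 ± 0.07 in ESC. Across the 20 arrays the correlation of Cald1 with Tpm2 was 0.667, the lowest of any pair of the 10 genes, and that of Actg2 with Ankrd1 was 0.985, the highest. These correlations describe the 20 arrays of 6 groups, which share group structure.

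Fibroblast feeders were a shared part of 4 of the cultures, and 11 fibroblast marker genes were measured beside the 10. On the linear scale, with no background subtracted, the median over the 10 genes, taken relative to MEF on each array, was 5.74% to 9.32% on the gPS arrays, 1.10% to 1.17% on the GSC arrays, 21.1% to 23.2% on the ESC_like arrays, 0.583% to 0.772% on the NSC arrays and 2.31% to 2.45% on the ESC arrays. The 11 fibroblast markers had medians of 5.36% to 18.3% on the gPS arrays, 12.3% to 14.6% on the GSC arrays, 18.3% to 22.2% on the ESC_like arrays, 4.50% to 5.41% on the NSC arrays and 1.72% to 2.08% on the ESC arrays. Both medians were above those of ESC on every gPS array, while relative to GSC the contractile median was higher on every gPS array and the fibroblast median was lower on 4 of the 5, with gPS replicate 2 above every GSC array. Of the 11 markers none was called higher in gPS cells relative to GSC (limma), where 9.10% of all genes were, and 2 were higher and 6 lower at an unadjusted p under 0.05. Called lower, as were 10.9% of all genes, were 3, Pdgfra (-2.37 ± 0.13), Col3a1 (-1.31 ± 0.39) and Col5a1 (-1.07 ± 0.17). Relative to ESC 7 were higher in gPS cells (2.36% of all genes), 8 in ESC_like cells (5.11%) and 9 in GSC (13.1%). The median marker differed by -0.61 between gPS cells and GSC and by 1.46 between gPS cells and ESC. None of the 11 markers is at 0 on this scale, and their part in the result was not tested.

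Single genes varied as well. Col3a1, a fibrillar collagen chain, stood at 2.55% to 19.2% of its MEF level on the gPS arrays, 11.5% to 14.6% on the GSC arrays, 19.7% in ESC_like cells and 0.338% in ESC. Acta2 stood at 7.82% in gPS cells, 0.923% in GSC, 33.0% in ESC_like cells and 1.14% in ESC. Within the gPS group, replicate 2 had the highest fibroblast marker median, 18.3%, against 5.36% to 7.82% on the other 4 arrays, while its median over the 10 contractile genes was 6.16%, the second lowest of the 5. The share also differed between genes of the same culture. In gPS cells it ran from 1.76% for Actg2 and 1.81% for Ankrd1 to 17.5% for Cnn2, and ESC_like cells stood above gPS cells by 1.84-fold for Cnn2 to 4.22-fold for Acta2.

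**Figure D4:**
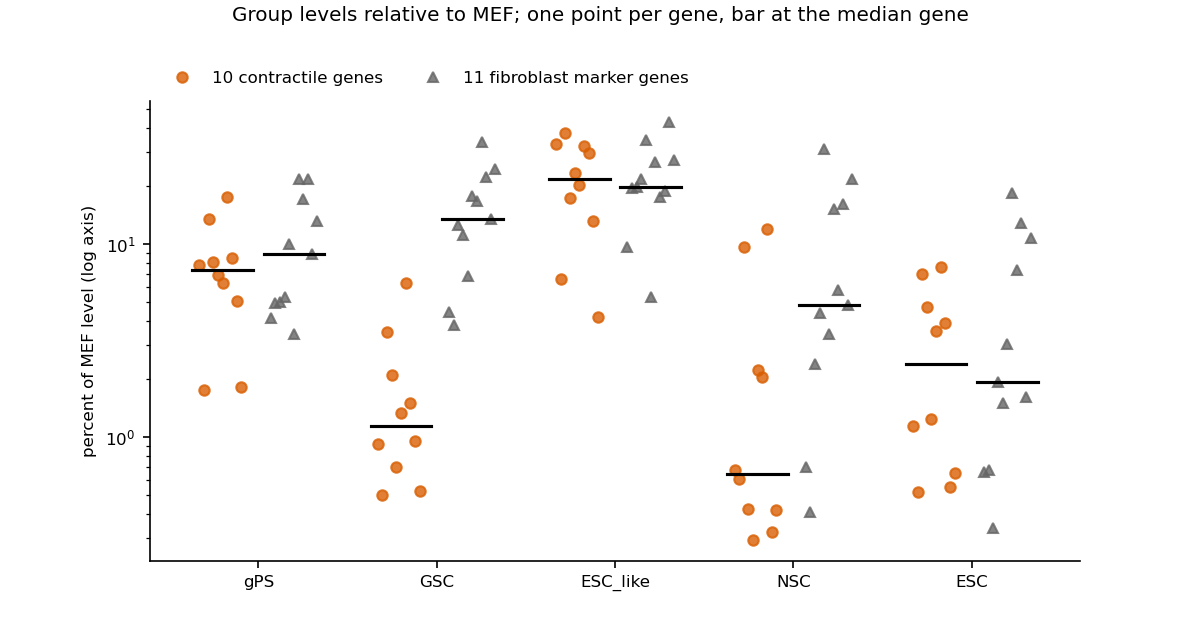
Group level of each gene as a percent of its MEF level (log axis), for the 10 contractile genes (circles) and 11 fibroblast marker genes (triangles), with a bar at the median gene. In GSC the circles lie near 1% while the triangles centre above 10%, and in ESC_like cells both centre near 20%.

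Transcripts of genes whose proteins work with the filaments were measured as well. Of 24 listed partners 23 were measured, and in gPS cells 10 were higher and 1 lower than in GSC, against 9.10% and 10.9% of all genes, with a median difference of 0.96. Csrp2, a LIM protein of smooth muscle (4.12 ± 0.16), Csrp1, a related LIM protein (1.87 ± 0.28), and Vim, the intermediate filament vimentin (1.55 ± 0.09), were higher. The 1 lower gene was Mylk, the kinase that phosphorylates the regulatory light chain (-1.67 ± 0.17), which averaged 5.28 ± 0.39 in gPS cells and 6.94 ± 0.08 in GSC (SD, n = 5 and 3). Relative to ESC the median was 0.23, and 3 partners were higher in gPS cells (2.36% of all genes), Vim (1.09 ± 0.09), Tgfb1i1, a focal adhesion protein (1.05 ± 0.15), and Zyx, the focal adhesion protein zyxin (1.01 ± 0.16). ESC_like cells had 8 partners higher and 1 lower than ESC, against 5.11% and 2.10% of all genes. MEF had 18 higher and 1 lower than ESC, where 23.4% of all genes were called in either direction. In gPS cells 1 partner, Csrp2, was higher than in ESC_like cells (1.39 ± 0.16) and 3 were lower, against 1.11% and 3.74% of all genes.

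Regulators of SRF and of TGF-beta signalling, a known inducer of these genes in fibroblasts, were read by transcript level alone. The activity of their proteins was not measured, and their part in the result was not tested. Of 16 listed regulators 15 were measured, and 1 was higher and 3 lower in gPS cells than in GSC, against 9.10% and 10.9% of all genes, with a median difference of -0.19. Smad7, the inhibitory Smad, was higher (1.45 ± 0.19), and the SRF cofactors Mrtfb (-1.53 ± 0.20) and Mrtfa (-1.38 ± 0.23) and the signal carrier Smad2 (-1.19 ± 0.11) were lower. Relative to ESC, where the median was 0.43, gPS cells had 3 higher and 1 lower, against 2.36% and 2.13% of all genes. The higher ones were the receptor Tgfbr2 (1.34 ± 0.17), Smad3 (1.16 ± 0.19) and the latency protein Ltbp1 (1.07 ± 0.17). The lower one was Tgfbi (-1.66 ± 0.50), which ran from 4.97 to 8.59 on the gPS arrays, a range that includes the ESC mean of 7.73. ESC_like cells had 6 higher and none lower than ESC, against 5.11% and 2.10% of all genes. Those higher were led by Tgfbr2 (3.02 ± 0.19), Tgfb3 (2.31 ± 0.14), Tgfb2 (2.19 ± 0.16) and Ltbp1 (2.19 ± 0.19). Tgfb2 and Tgfb3, TGF-beta ligands, were lower in gPS than in ESC_like cells by -2.01 ± 0.15 and -1.47 ± 0.12.

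Of 16 genes of the Yap1 and TEAD pathway 15 were measured, and 6 were higher and 1 lower in gPS cells than in GSC, against 9.10% and 10.9% of all genes, with a median difference of 0.64. Ccn2 (3.58 ± 0.20) and Ccn1 (3.17 ± 0.19), matricellular proteins and known targets of Yap1, the TEAD cofactor Vgll3 (2.92 ± 0.19) and the coactivator Wwtr1 (2.10 ± 0.13) were among those higher. GSC had 3 higher and 7 lower than ESC, against 13.1% and 10.2% of all genes, the lower ones led by Vgll3 (-3.07 ± 0.21), Ccn2 (-2.82 ± 0.22), Wwtr1 (-2.17 ± 0.14) and Yap1 (-2.09 ± 0.11). Against ESC, gPS cells had 2 higher and none lower, where 2.36% and 2.13% of all genes were. The 2 were Ccn1 (1.74 ± 0.19) and the DNA-binding factor Tead2 (1.41 ± 0.19). ESC_like cells also had 2 higher than ESC (5.11% of all genes), Ccn1 (2.54 ± 0.21) and Ccn2 (1.57 ± 0.22). None of the 15 was called between gPS and ESC_like cells (limma), where 1.11% of all genes were higher and 3.74% lower. At an unadjusted p under 0.05, 2 of the 15 were higher and 5 lower.

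Other muscle genes were read from 2 further lists. Of 6 mature smooth muscle markers 1 was higher in gPS cells than in GSC, Smtn, an actin-binding protein of contractile cells (1.56 ± 0.22), against 9.10% of all genes, and none was called relative to ESC (limma), with 2 higher at an unadjusted p under 0.05. MEF had 3 of the 6 above ESC, Lmod1 (2.08 ± 0.12), Smtn (1.23 ± 0.25) and Synpo2 (1.02 ± 0.15). In that comparison 23.4% of all genes were called in either direction, so the share called higher was smaller than that. Of 9 cardiac and skeletal muscle genes none was called higher in gPS cells relative to GSC or ESC (limma), with 2 and 0 higher at an unadjusted p under 0.05. Called lower relative to GSC were 2, Myh6 (-3.15 ± 0.16) and Tnni3 (-2.34 ± 0.19), against 10.9% of all genes. None was called between MEF and ESC, with 3 lower at an unadjusted p under 0.05.

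Outside the 10 genes, the 8 most alike in pattern were sought among 2283 genes whose SD over the arrays exceeded 1, by their Pearson correlation with the mean of the 10 genes over 20 arrays. They were Timp1 (0.984), Ereg (0.983), Gpc4 (0.980), Igfbp7 (0.979), Inhba (0.977), Ptgs2 (0.976), Anxa8 (0.976) and Slit2 (0.974). Timp1, an inhibitor of matrix metalloproteinases, averaged 9.15 in gPS cells, 7.23 in GSC, 10.26 in ESC_like cells, 12.93 in MEF, 6.69 in NSC and 8.38 in ESC. Ptgs2, the inducible cyclooxygenase, averaged 7.53 in gPS cells, 3.19 in GSC, 9.68 in ESC_like cells, 11.87 in MEF, 3.31 in NSC and 3.83 in ESC. Both were chosen for this likeness, so their order of groups is no separate result.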

How the data were processed

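Transcript levels of 20 cultured mouse cell samples were measured on Affymetrix arrays. The deposited log2 intensities, 1 per probe set and array, came from RMA run by the authors (version not given), per the submitters' processing notes. RMA corrects background, brings the arrays to 1 distribution and combines the probes of each set, and whether the 20 arrays shared 1 run is not given in the sources used here. Array medians were 4.94 to 5.04 and all values lay between 2.04 and 14.59. Within a group the mean correlation of an array with the others was 0.979 (gPS replicate 1) to 0.997. The number of arrays limits the precision.

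Of 45101 probe sets, 64 controls were left out. Of the rest 34945 had 1 gene symbol, 932 several and 9160 none, and 34741 symbols were updated through gene identifiers from RefSeq. None of the sets with several symbols named 1 of the 10 genes. With the set of highest mean over all arrays standing for a gene, 18193 genes were tested. limma 3.58.1 (R 4.3.3, lmFit and eBayes) was fitted with 1 mean per group over all arrays and no covariate, and again over all 45037 probe sets, for 8 comparisons, and was tested on simulated data. Errors marked SE, and those after a difference, are limma's standard errors.

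Members and gene lists were chosen with earlier results of these data known. The lists were contractile partners, paralogs, SRF and TGF-beta regulators, Yap1 and TEAD pathway, fibroblast, mature smooth muscle, cardiac and skeletal muscle, pluripotent, germ line, neural stem cell and testis somatic genes. Named were all 10 genes and, from each list, up to 4 called genes with the largest and up to 2 not called with the smallest differences. Alternatives were quantile normalization, centring, a variance trend with robust fit, array weights, only the compared groups, ESC_like left out, averaging a gene's probe sets, a_at, s_at and x_at sets left out (only s_at and x_at, added after seeing the data), dim genes left out, other call rules, leaving out each array and a replicate block. Python 3.11.15 with pandas 2.3.3, numpy 2.4.6 and, for plots, matplotlib 3.10.9 handled the rest.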

Additional observations from a re-analysis of the deposited data

Results flagged for a closer look

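Among the 23 probe sets, 3 had 1 gPS array far from the other 4 (its gap to the nearest array, over the group's range, exceeded Dixon's 95% critical value), where chance gives about 1 in 20. For Cald1 (1424769_s_at) gPS replicate 1 was lowest at 9.21, against 9.73 to 9.92 on the other gPS arrays. For Tpm1 (1456623_at) the same array was lowest at 5.67, against 6.74 to 7.07. For Tpm2 (1425028_a_at) gPS replicate 4 was highest at 9.13, against 8.47 to 8.61. gPS replicate 1 also had the lowest mean correlation with its group, 0.979.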

How the results depend on the processing

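Of 2692 values of the 10 genes under alternatives, 2640 kept direction and call, 23 gained a call, 19 lost one and 10 reversed. The reversals were Actg2 in GSC minus ESC with array weights (0.03) and without ESC replicate 3 (0.12; -0.20 to 0.12 over all arrays left out), and, without a_at, s_at and x_at sets, Tpm2 in gPS minus GSC (-0.09), gPS minus ESC (-0.13), gPS minus ESC_like (0.09) and ESC_like minus ESC (-0.22) and Acta2 in gPS minus ESC_like (0.10) and ESC_like minus ESC (-0.06), which Acta2 also gave with s_at and x_at sets left out, added after seeing the data. With all these suffixes left out, Acta2 and Tpm2 rest on dim probe sets by construction, and Actg2 has none left. Member genes called in GSC minus ESC numbered 1 with the mean of the probe sets, 1 with a_at, s_at and x_at sets left out and 6 with no minimum fold, and those in NSC minus ESC numbered 8 with no minimum fold. With no minimum fold, genes called over all genes were 9253 (gPS minus GSC), 4555 (gPS minus ESC), 5339 (gPS minus ESC_like), 9709 (gPS minus MEF), 5131 (ESC_like minus ESC), 9143 (GSC minus ESC), 8835 (MEF minus ESC) and 8615 (NSC minus ESC). Without each array in turn, member genes called were 6 to 8 in gPS minus ESC, 8 to 10 in gPS minus ESC_like, 3 to 4 in GSC minus ESC, 4 in NSC minus ESC and 10 in the other 4 comparisons. Deviations of same-numbered arrays from their group means were correlated for 45 pairs, and 7 exceeded 0.1, the threshold set for pairing. The range was -0.17 to 0.27, with gPS and ESC_like replicate 2 at the top. With the replicate number as a block, 6 member genes were called in gPS minus ESC, where Cnn2 lost its call (0.79). At that setting 3 were called in GSC minus ESC, 4 in NSC minus ESC and 10 in each of the other comparisons. With the mean of the probe sets, 5 member genes were called in gPS minus ESC, without Acta2 (0.98) and Cald1 (0.80), 6 in gPS minus ESC_like, without Acta2 (-0.72), Tpm1 (-0.75) and Tpm2 (-0.88), and 3 in NSC minus ESC, without Cald1 (0.90). Signal limits the dim groups, since several means lie below the median of all values.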

Other observations

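Of the 9 cardiac and skeletal muscle genes, 2 were higher and 1 lower in GSC than in ESC, against 13.1% and 10.2% of all genes. Myh6, the cardiac alpha-myosin heavy chain, averaged 7.61 ± 0.28 in GSC and 4.34 ± 0.10 in ESC, and Tnni3, cardiac troponin I, 6.76 ± 0.60 in GSC and 4.30 ± 0.15 in ESC (SD, n = 3 each). Both were higher in GSC than in ESC, by 3.27 ± 0.18 and 2.46 ± 0.22 (SE, limma, adjusted p = 2.44e-12 and 4.28e-09), and lower in gPS cells than in GSC, by -3.15 ± 0.16 and -2.34 ± 0.19. Myl7, the atrial light chain, was lower in GSC than in ESC by -1.46 ± 0.20, and the other 6 genes of the list were not called there.

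Lists of pluripotent, germ line, neural stem cell and testis somatic genes were read as a check of the labels. The list means of gPS and ESC_like arrays overlapped on all 4 lists, but single genes differed. In gPS cells 1 germ line gene was higher than in ESC_like cells, Ddx4 (1.81 ± 0.23), against 1.11% of all genes. Lower were 2, Dazl (-2.59 ± 0.13) and Mael (-1.56 ± 0.30), against 3.74%. Ddx4 averaged 7.23 ± 0.56 in gPS cells, 7.17 ± 0.04 in MEF and 11.81 ± 0.13 in GSC (SD, n = 5, 3 and 3). Its level in gPS cells was thus also seen in fibroblasts and is not particular to germ line cells. Of the neural stem cell genes Olig2 was higher (1.15 ± 0.43) and Fabp7 lower (-1.19 ± 0.20), and none of the other 2 lists was called. Olig2 was close to the threshold (limma, adjusted p = 0.04855). It ran from 2.97 to 6.18 on the gPS arrays, so the lowest array lay at about the ESC_like mean of 3.00. All 4 pluripotency genes were higher in gPS cells relative to GSC (9.10% of all genes), with Nanog at 7.71 ± 0.12. All 4 germ line genes were lower (10.9% of all genes), with Dazl at -7.20 ± 0.13. Against ESC 1 pluripotency gene was lower in gPS cells, Zfp42 (-2.89 ± 0.12), and 1 germ line gene was higher, Ddx4 (1.40 ± 0.23). Of all genes 2.13% were lower and 2.36% higher there. Of 5 neural stem cell genes 4 were higher in NSC than in ESC (11.4% of all genes), with Fabp7 at 9.97 ± 0.22. Of 6 measured testis somatic genes 1 was higher in GSC than in ESC, where 13.1% of all genes were. This was Wt1, a marker of Sertoli cells (2.51 ± 0.24), and the steroidogenic gene Star differed by 0.10 ± 0.13. In NSC, Ccn2 was lower than in ESC by -4.55 ± 0.22 while Yap1 differed by -0.03 ± 0.11.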
